A study of Mus musculus with 22 samples.

Results

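The comparison described here sets Ythdc1-cKO.Dux-KO against Ythdc1-cKO.Dux-Het embryonic stem cells (ESCs), both treated with 4OHT. Its members are 4 of the 22 RNA-seq libraries of the series, chosen by their titles and by the matching column names of the deposited count table: Dux-KO replicates 1 and 2 and Dux-Het replicates 1 and 2. All 4 come from male mouse ESCs that carry a conditional knockout (cKO) of Ythdc1, whose protein binds m6A-modified RNA in the nucleus. 4OHT is a ligand used to switch on inducible Cre recombinases, here to delete Ythdc1. Dux-Het cells are heterozygous for Dux and Dux-KO cells are its homozygous knockouts. The same genotypes treated with the solvent DMSO, in 2 libraries each, give the background of the comparison without Ythdc1 loss. A further pair of Ythdc1-cKO libraries with no Dux label, 1 under 4OHT and 1 under DMSO, shows the level in cells with no stated change at Dux. The cells were grown without feeders in serum and LIF. The Cre driver, the 4OHT dose and duration, what was removed at Dux and how many clones stand behind each genotype are not stated in the labels.

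Dux is a double-homeobox transcription factor that is made for a short time when the mouse embryo switches on its own genome at the two-cell stage. It binds and activates genes such as the Zscan4 cluster and the long terminal repeats of the endogenous retrovirus MERVL, some of which serve as promoters of neighbouring genes. Cultured ESCs enter a two-cell-like state rarely and leave it again, and repressors that act on the Dux array and on retroelements keep it rare. In bulk RNA, fewer cells in that state and less RNA per cell cannot be told apart.

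The promoters of the Zscan4 genes show what such a target looks like. The windows tabulated for GRCm38.p6 by RefSeq run from 250 bases before to 50 after each gene start, and they were searched on both strands for TGATT followed, after any 2 bases, by ATCA (on the other strand TGAT, 2 bases and AATCA), the letters used here for the Dux consensus. The motif was present in 68 of 32851 windows (0.207%). Of the 78 genes that were lower in Dux-KO under 4OHT, 27 had a window and 5 of these held the motif (18.5%): Zscan4b, Zscan4c, Zscan4d, Zscan4f and Abcb5. That is a share of genes, which had 28 windows, and 4 of the 5 are near-copies of each other. The 2 shares are therefore not directly comparable. The windows of Zfp352, Usp17la, Usp17lb, Usp17lc and Usp17ld held no motif. The 250 bases before the start of Zscan4c (chr7:11005495-11005744, + strand, mm10) are printed whole because they carry the motif in the setting of its cluster. For the others the 41 bases around the motif are given. All are 5′ to 3′ on the gene's strand, with the motif in capitals.
Zscan4c: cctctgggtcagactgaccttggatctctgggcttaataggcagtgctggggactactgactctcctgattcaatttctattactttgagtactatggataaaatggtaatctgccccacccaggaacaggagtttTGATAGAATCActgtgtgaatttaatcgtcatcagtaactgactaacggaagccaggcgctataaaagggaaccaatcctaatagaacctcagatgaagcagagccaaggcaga
Zscan4b, chr7:10905116-10905156, - strand: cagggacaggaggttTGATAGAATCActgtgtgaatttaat
Zscan4d, chr7:11166248-11166288, - strand: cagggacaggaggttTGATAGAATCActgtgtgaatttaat
Zscan4f, chr7:11397809-11397849, + strand: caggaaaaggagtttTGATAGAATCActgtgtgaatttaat
Abcb5, chr12:118966472-118966512, - strand: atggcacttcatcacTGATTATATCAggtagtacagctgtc
The 4 Zscan4 promoters share the same letters at the motif, and the pairs were 94.7 to 99.6% identical when aligned on it. Abcb5, which encodes a membrane transporter and lies on another chromosome, differed from them at most bases. Aligned in the same way, it was identical to the Zscan4 promoters at 29.4 to 31.8% of bases, the motif included. A match is a description of the sequence. No binding was measured in these libraries.

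The libraries were deep, with 43.02 and 52.21 M counts in Dux-Het and 49.51 and 54.14 M in Dux-KO under 4OHT, and 31.64 to 47.36 M in the 4 DMSO libraries. Levels are given in CPM, counts scaled to library size, scaled with the same factors over all 10 libraries. Dux-Het replicate 2 stood apart from the other 3 libraries under 4OHT. Over well expressed entries, its root mean square log2 difference was 0.343 from Dux-Het replicate 1 and 0.353 and 0.363 from the Dux-KO libraries, whereas Dux-Het replicate 1 lay 0.216 and 0.162 from the Dux-KO libraries. Part of the difference lay on chromosome 11. The median of its 844 genes with a mean of 10 CPM or more over the 10 libraries, relative to all other genes, was 0.33 log2 units below the mean of the 10 libraries in Dux-Het replicate 2 under 4OHT (-0.33) and -0.37 in Dux-Het replicate 2 under DMSO. In the other 6 libraries with a Dux label it was 0.09 to 0.16. In the libraries with no Dux label it was -0.00 under 4OHT and 0.03 under DMSO. For every other chromosome and all 10 libraries this value lay between -0.12 and 0.13. The chromosome 11 median of the Dux-KO minus Dux-Het difference was 0.184 under 4OHT and 0.176 under DMSO. Chromosome 11 holds 5 of the 80 entries that were lower in Dux-KO. The cause was not tested. Values without this library are given below for the count of lower entries and for the lists and genes in which it was far from the other 3.

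**Figure D1:**
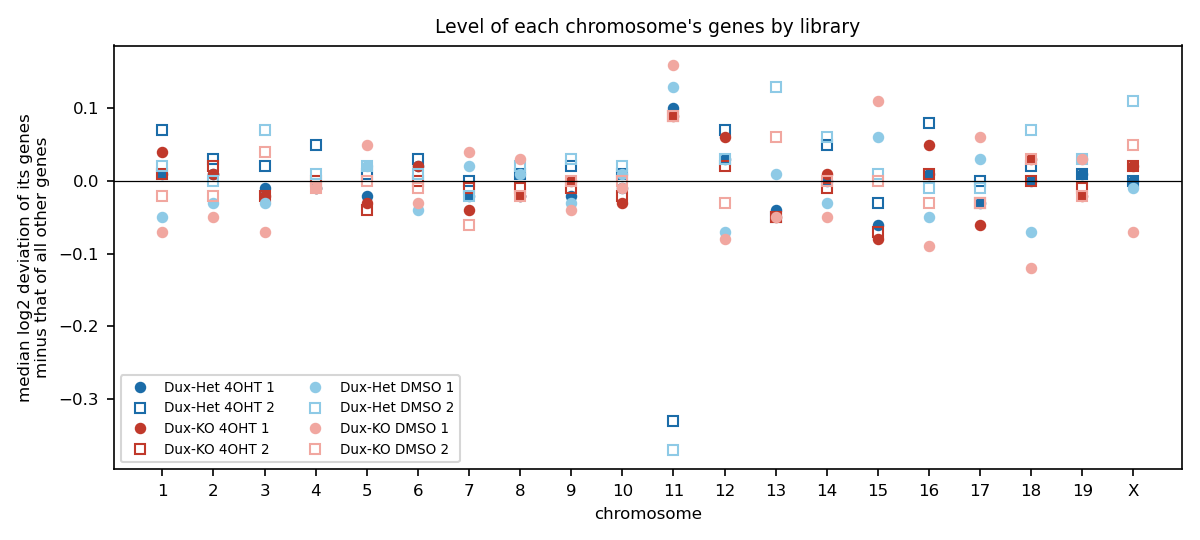
Median log2 deviation of the genes of each chromosome from the mean of the 10 libraries, minus that of all other genes (vertical axis), by chromosome (horizontal axis), for the 8 libraries with a Dux label; genes with a mean of 10 CPM or more over the 10 libraries. Dux-Het replicate 2 sits at -0.33 (4OHT) and -0.37 (DMSO) on chromosome 11, and every other point lies between -0.12 and 0.16.

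The genotype labels were checked on Dux itself, which stands in the table as Duxf3 (chromosome 10, 58229979 to 58232675 on mm10). Duxf3 had 68 and 48 counts in the Dux-Het libraries under 4OHT and 1 and 5 in the Dux-KO libraries. Under DMSO it had 6 and 3 counts in Dux-Het and 2 and 4 in Dux-KO, and the pair with no Dux label had 46 under 4OHT and 13 under DMSO. The Dux-Het and Dux-KO libraries did not overlap under 4OHT (log2 fold change -4.39 with an SE of 0.673; edgeR adjusted p = 0.019). In Dux-Het cells Duxf3 rose under 4OHT (log2 fold change 3.52, adjusted p = 0.00713), and in Dux-KO cells the change was -0.42 (adjusted p = 0.817). The call on Duxf3 did not hold in the fit of the 4 libraries under 4OHT alone or without Dux-Het replicate 1, Dux-KO replicate 1 or Dux-KO replicate 2. Its log2 fold change was -3.73 to -5.76 with 1 Dux-KO library left out.

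Other genes of the Dux family were examined beside it. AW822073 had 1.48 and 0.463 CPM in Dux-Het and 0 and 0.0722 CPM in Dux-KO under 4OHT, and it did not pass (log2 fold change -4.59, adjusted p = 0.196). Duxbl1, a related double-homeobox gene elsewhere in the genome, had 9.24 and 4.59 CPM in Dux-Het and 5.36 and 6.12 CPM in Dux-KO, so that its groups overlapped (-0.26, 95% interval -0.92 to 0.39). Duxbl2 and Duxbl3 did not pass either (log2 fold changes 0.07 and -0.23). Gm4981 and Gm19459 had too few counts to be tested.

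Ythdc1 itself was at similar levels in both genotypes under 4OHT: 52.6 and 65.7 CPM in Dux-Het and 54.0 and 56.7 CPM in Dux-KO (log2 fold change -0.10, 95% interval -0.57 to 0.38, adjusted p = 1.00). Against DMSO its whole-gene count changed by -0.28 in Dux-Het (adjusted p = 0.456) and -0.09 in Dux-KO (adjusted p = 0.843). Which exons 4OHT removes is not stated in the labels, so the count over the whole gene does not check the deletion. Mettl3, the enzyme that places m6A, was at 35.7 and 35.8 CPM in Dux-Het and 32.6 and 33.5 CPM in Dux-KO (-0.11, adjusted p = 1.00).

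Few entries were lower in Dux-KO, and almost none were higher. Of 29322 genes and repeat families tested, 80 were lower in Dux-KO than in Dux-Het under 4OHT (0.273%) and 1 was higher (0.00341%). The 80 comprise 78 genes and 2 repeat families. By annotation 49 of the genes are protein coding, 18 are processed pseudogenes, 4 are unprocessed pseudogenes, 4 are lincRNAs, 2 are processed transcripts and 1 is antisense. At an unadjusted p under 0.05 by edgeR there were 873 of the 29322 entries, a share below the 0.05 expected with no difference at all. DESeq2 called 107. For none of the 80 did a Dux-KO library reach the level of a Dux-Het library. The 80 were called from these same libraries, so this follows largely from the call. Of all tested entries 15.6% showed the same arrangement. Both Dux-KO libraries had 0 counts for 28 of the 80, and a further 25 had 1 to 3 counts over both. Where the labels name no change at Dux, in 1 library per treatment, all 80 were higher under 4OHT than under DMSO, as were 53.0% of all tested entries. These shares are not comparable, because the 80 were chosen as high in Dux-Het under 4OHT. Some of them also passed the filter on low counts only through libraries under 4OHT. Gm4301, for example, had 0 or 1 counts in every DMSO library.

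The number of calls rests on both Dux-KO libraries. Without Dux-KO replicate 1 it was 30 lower entries, all among the 80, and without replicate 2 it was 32, of which 31 were among the 80. Without Dux-Het replicate 2, the library that stood apart, 71 entries were lower and 70 of these were among the 80. Of the 80, 28 kept the call under every alternative in which they were tested, among them all 9 Zscan4 entries, and none changed direction.

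**Figure D2:**
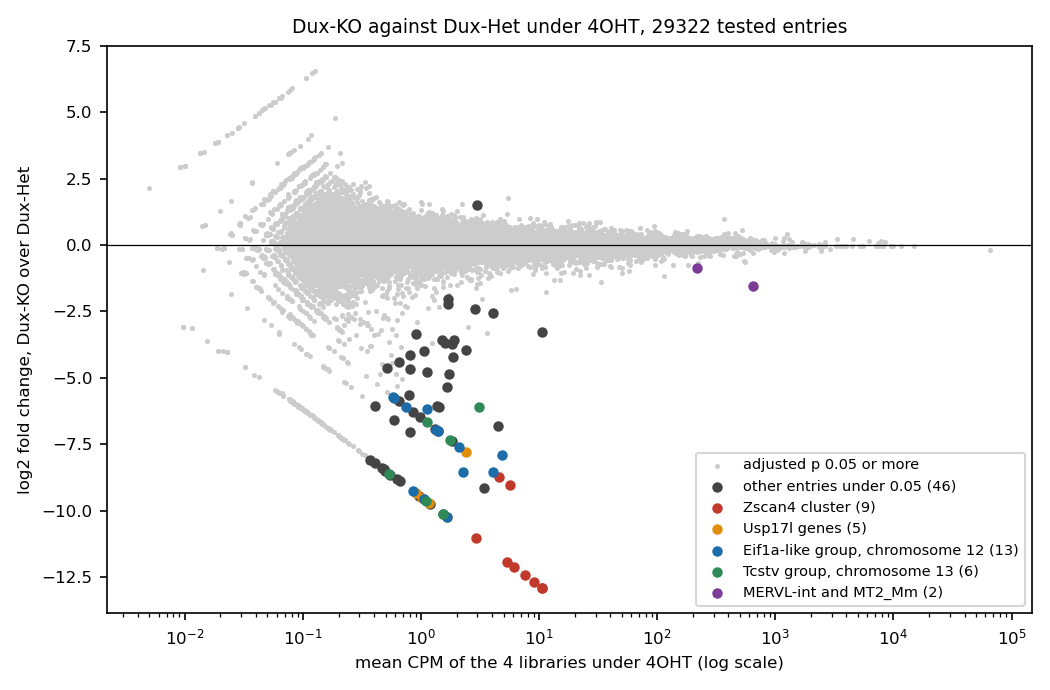
Fitted log2 fold change of Dux-KO over Dux-Het under 4OHT (vertical axis) against the mean CPM of the 4 libraries (horizontal axis, log scale) for 29322 tested entries; coloured points are entries with an adjusted p under 0.05. All but 1 of the 81 coloured points lie below 0, most at 10 CPM or less, and the 2 purple points are MERVL-int and MT2_Mm at -1.55 and -0.88. Fitted values of entries with 0 counts in Dux-KO depend on the prior count and are not bounds.

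The Zscan4 genes encode SCAN-domain zinc-finger proteins of the two-cell embryo that act in telomere maintenance. All 9 entries of the cluster (chromosome 7, 10794242 to 11614112) were lower in Dux-KO. Their near-identical sequences can share reads, so the sum over the cluster is given first. The cluster summed to 130 and 119 CPM in the Dux-Het libraries under 4OHT (5698 and 6193 counts) and to 0.0398 and 0.0361 CPM in the Dux-KO libraries (2 counts each). That is a ratio of 3279 with a 95% counting interval from 1280 to 12035. The interval takes counts as independent. Low counts in Dux-KO often came as 2 in 1 library and 0 in the other, as for Zscan4e and Zscan4-ps3. Whether both reads of a pair were counted is not stated and was not tested. If they were, this and the other counting intervals are too narrow. The library with no Dux label reached 89.0 CPM under 4OHT and 14.2 CPM under DMSO. Both Dux-KO libraries thus lay far below every Dux-Het library and both libraries with no Dux label, those under DMSO included.

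Within the cluster, 7 entries had 0 counts in both Dux-KO libraries. Folds given as a bound also take counts as independent, and they are too high if both reads of a pair were counted. Zscan4c, at 21.6 and 20.5 CPM in Dux-Het, was at least 739-fold lower in Dux-KO against a floor of 3 counts over the group (adjusted p = 1.86e-05). Zscan4-ps2 had 22.1 and 20.1 CPM in Dux-Het and was at least 738-fold lower. Zscan4b (18.5 and 17.5 CPM) was at least 632-fold lower and Zscan4d (17.1 and 13.6 CPM) at least 534-fold lower. For Zscan4a and Zscan4f the bounds were 430-fold and 376-fold, and for Zscan4-ps1 the bound was 205-fold. The remaining entries had 2 counts each in Dux-KO: Zscan4e fell from 11.3 and 11.2 CPM (ratio 593, 164 to 4901) and Zscan4-ps3 from 8.76 and 9.52 CPM (ratio 484, 134 to 4004).

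**Figure D3:**
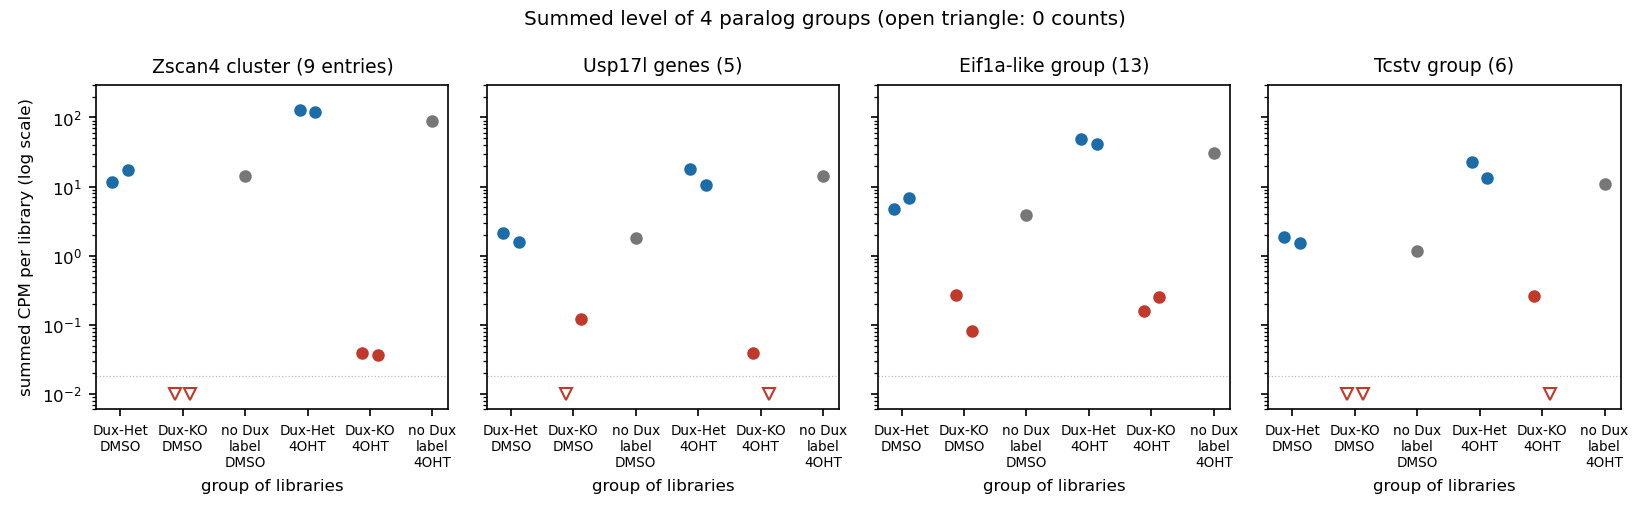
Summed CPM (vertical axis, log scale) of the Zscan4 cluster (9 entries), the Usp17l genes (5), the Eif1a-like group of chromosome 12 (13) and the Tcstv group of chromosome 13 (6), 1 point per library, by group of libraries; open triangles are libraries with 0 counts. Dux-Het libraries under 4OHT lie between 10.7 and 130 CPM, and all Dux-KO libraries lie at 0.271 CPM or lower.

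Other groups of paralogs lie among the 80, in tandem arrays that also share reads. The chromosome 12 and chromosome 13 groups described here were put together from the lower entries themselves, so that all their members are lower by construction and only their levels are described. The Usp17l genes, deubiquitinases arrayed on chromosome 7, summed to 17.8 and 10.7 CPM in Dux-Het and to 0.0398 and 0 CPM in Dux-KO under 4OHT (ratio 737, 204 to 6094), and all 5 passed the test. A set of 13 entries on chromosome 12 (87480108 to 88324026), which includes genes that resemble the translation initiation factor Eif1a such as Gm2016, Gm5662 and Gm8300, summed to 49.2 and 40.7 CPM in Dux-Het and 0.159 and 0.253 CPM in Dux-KO (ratio 214, 141 to 342). A set of 6 entries on chromosome 13 (119912095 to 120318178) around Tcstv3, a gene of two-cell-specific transcripts, summed to 22.8 and 13.5 CPM in Dux-Het and to 0.259 and 0 CPM in Dux-KO (ratio 144, 84.1 to 271). In each of these groups the Dux-KO libraries under 4OHT were below all Dux-Het libraries, DMSO included. Under 4OHT, Dux-Het replicate 1 was the higher Dux-Het library in all of them.

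The list of other two-cell genes, drawn up with earlier results of these data known, had 92 members in the table. Of these, 22 had too few counts to be tested, and among the 70 tested 24 were lower in Dux-KO and none higher. Of the 70, 18 had 0 counts in both Dux-KO libraries under 4OHT and so passed the filter on low counts through other libraries, for which reason no median over the list is given. Of the 24, 8 had 0 counts in both Dux-KO libraries. Zfp352, a zinc-finger gene and a common marker of two-cell-like cells, had 0.912 and 0.578 CPM in Dux-Het and was at least 25.7-fold lower in Dux-KO (adjusted p = 0.0424). That call held under 10 of 17 alternatives. Gm13119 had 2.55 and 2.22 CPM in Dux-Het and was at least 83.5-fold lower, and Pramef25, of the Prame family, was at least 32.7-fold lower, a call that held under 14 of 17. Tmem92, a transmembrane protein gene on chromosome 11, had 9.49 and 4.24 CPM in Dux-Het and 0.0199 and 0 CPM in Dux-KO, a ratio of 701 with a wide interval of 125 to 27748 because it rests on 1 count. Tcstv3 went from 3.22 and 1.23 CPM to 0.0398 and 0 CPM (ratio 113, 30.9 to 940). Trim75, a tripartite-motif gene and the best counted of these single genes in Dux-KO, had 2.28 and 1.68 CPM in Dux-Het and 0.12 and 0.126 CPM in Dux-KO (log2 fold change -3.97, SE 0.476, adjusted p = 0.00536).

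The other 46 tested members of that list did not pass. Tcstv3, Trim75 and the genes named next were picked out after their values were seen. Of the 46, 25 were below 1 CPM in Dux-Het and 18 had an unadjusted p under 0.05. Tdpoz3, for example, had 1.3 and 0.713 CPM in Dux-Het and 0.0398 and 0 CPM in Dux-KO (adjusted p = 0.0742), and Gm2056 had 0.844 and 0.598 CPM and 0 in both Dux-KO libraries (adjusted p = 0.0648). The 8 members at 10 CPM or more in Dux-Het had log2 fold changes between -0.25 and 0.27. Zfp750, an epidermal zinc-finger regulator, was at 23.9 and 15.2 CPM in Dux-Het and 21.2 and 25.9 CPM in Dux-KO under 4OHT, against 4.49 to 6.38 CPM in the DMSO libraries of both genotypes (0.27, 95% interval -0.26 to 0.80). Ddit4l, an inhibitor of mTOR signalling, was at 24.5 and 30.4 CPM in Dux-Het and 26.8 and 24.1 CPM in Dux-KO, against 3.93 to 6.15 CPM under DMSO (-0.11, -0.59 to 0.37). For both genes the groups overlapped under 4OHT, and all 4 of these libraries lay well above those under DMSO. Sp110, a nuclear body protein, was intermediate: 5.36 and 3.39 CPM in Dux-Het, 1.75 and 1.41 CPM in Dux-KO and 0.599 to 1.35 CPM under DMSO (-1.47, -2.26 to -0.67, adjusted p = 0.357).

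MERVL-int is the internal part of MERVL and MT2_Mm the long terminal repeat that drives it. MERVL-int was at 1059 and 862 CPM in Dux-Het and at 332 and 327 CPM in Dux-KO under 4OHT (log2 fold change -1.55, SE 0.161, adjusted p = 0.00119). Under DMSO it was at 312 and 346 CPM in Dux-Het and 235 and 291 CPM in Dux-KO, so that the Dux-KO libraries under 4OHT lay in the range of Dux-Het under DMSO. MT2_Mm was at 293 and 274 CPM in Dux-Het and 159 and 149 CPM in Dux-KO (-0.88, SE 0.148, adjusted p = 0.0348), against 146 and 169 CPM in Dux-Het under DMSO. The 4OHT response of MERVL-int was 1.54 in Dux-Het (adjusted p = 0.000328) and 0.32 in Dux-KO (95% interval -0.02 to 0.67, adjusted p = 0.217). Unlike Zscan4, both families thus kept a level of 149 to 332 CPM in Dux-KO under 4OHT. The call on MERVL-int was lost without either Dux-KO library (log2 fold change -1.56 and -1.53), and that on MT2_Mm without any 1 of the 4 libraries under 4OHT (-0.83 to -0.93).

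These were the only repeat families that passed, 2 of 1047 tested (0.191%). MT2A, MT2B, MT2B1, MT2B2, MT2C_Mm and MERVL_2A-int, older relatives of the same elements, had log2 fold changes from -0.12 to -0.01, and their 95% intervals lay between -0.46 and 0.29. Of 46 other retroelement families none passed (median -0.14, range -0.77 to 0.33). L1Md_F2 of the LINE-1 class was at 2783 and 3359 CPM in Dux-Het and 2741 and 2808 CPM in Dux-KO (-0.15, 95% interval -0.52 to 0.23). MMETn-int, an LTR element, was at 2133 and 3042 CPM in Dux-Het and 2292 and 2336 CPM in Dux-KO (-0.16, -0.93 to 0.60). In both of these the highest library was Dux-Het replicate 2. Against DMSO, 7 of the 46 families rose under 4OHT in Dux-Het, beside 4.99% of all entries, and 11 rose in Dux-KO, beside 5.50%. Among 3 satellite families tested none differed between the genotypes.

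**Figure D4:**
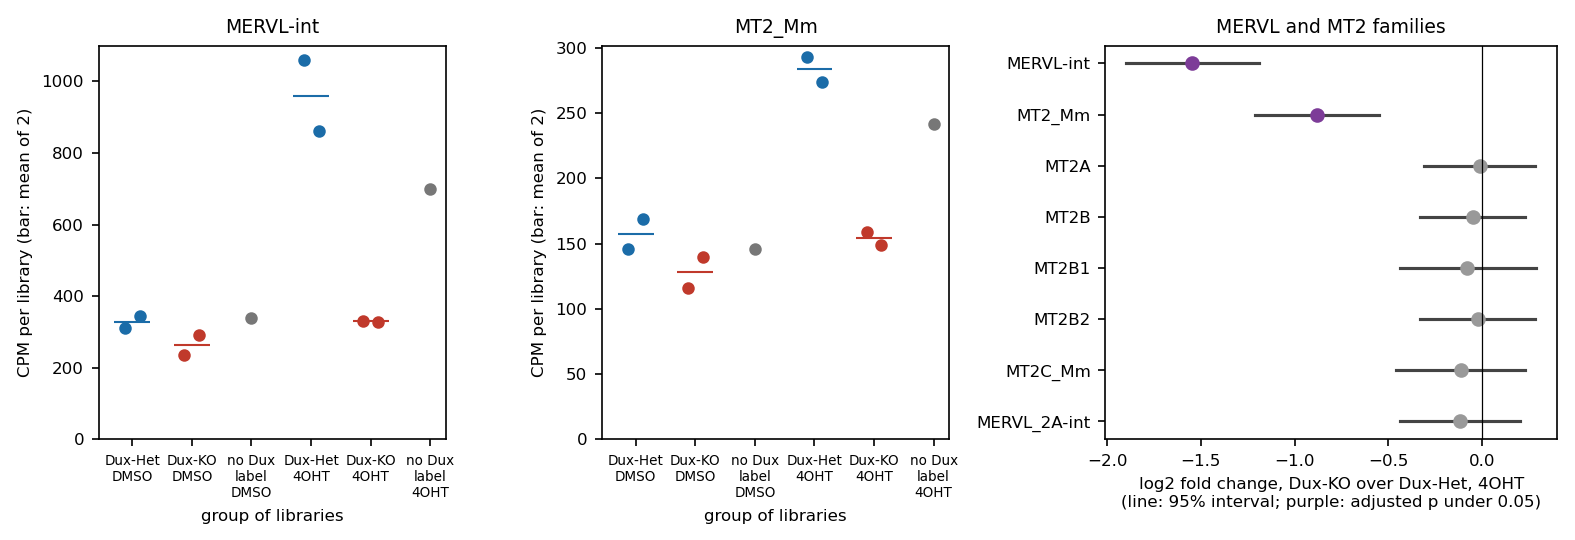
CPM per library of MERVL-int and MT2_Mm by group (left and middle; bars are means of 2 libraries), and the log2 fold change of Dux-KO over Dux-Het under 4OHT with its 95% interval for 8 MERVL and MT2 families (right). MERVL-int stands at 1059 and 862 CPM in Dux-Het under 4OHT against 332 and 327 in Dux-KO, and only MERVL-int and MT2_Mm have intervals away from 0.

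Of the 80 lower entries, 44 belong to no list. Most, 37, are named by a number, and 7 have a full gene name. These were picked out after their values were seen, and 5 of them are described here. Cacna1s, a voltage-gated calcium channel subunit of skeletal muscle, was at 9.24 and 4.7 CPM in Dux-Het and 1.14 and 1.25 CPM in Dux-KO under 4OHT (log2 fold change -2.54, SE 0.353, adjusted p = 0.00949). Its 4 libraries under DMSO were at 0.86 to 1.18 CPM. Lgals4, a galectin of the gut epithelium, went from 5.25 and 4.34 CPM to 0.976 and 0.812 CPM (-2.42, SE 0.281, adjusted p = 0.00285). Mecom, a zinc-finger factor with roles in blood stem cells, went from 2.96 and 2.43 CPM to 0.737 and 0.578 CPM (-2.03, adjusted p = 0.0194). Those Dux-KO values were below its 4 DMSO libraries with a Dux label (1.22 to 1.54 CPM). The DMSO library with no Dux label lay between the Dux-KO values, at 0.648 CPM. Calhm3, an ion channel subunit, had 3.06 and 1.31 CPM in Dux-Het and 0.0996 and 0.0542 CPM in Dux-KO (-4.79, adjusted p = 0.00938). Abcb5 had 1.55 and 1.77 CPM in Dux-Het and 0.159 and 0.162 CPM in Dux-KO (-3.35, adjusted p = 0.0339). The calls on Cacna1s, Lgals4, Mecom, Calhm3 and Abcb5 each failed under 2 or more of the alternatives.

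Among the numbered entries the processed pseudogene Gm4782, picked out after its values were seen, was the best counted. It was at 24.1 and 14.1 CPM in Dux-Het and 1.73 and 2.24 CPM in Dux-KO (log2 fold change -3.26, SE 0.31, adjusted p = 0.000639). Gm16478 had 3.35 and 2.78 CPM in Dux-Het and was at least 107-fold lower, and Gm21542 (2.42 and 1.41 CPM) was at least 65.8-fold lower. The positions of the lower entries were grouped: with a gap of at most 1 Mb, 54 of the 78 genes fell into 14 groups and 24 stood alone. Beyond the arrays described above, Tmem92 lay with the unprocessed pseudogenes AA623943 and Gm11543 on chromosome 11 (94777217 to 94828930), and Mecom lay with the noncoding entries Gm38258 and Gm38153 on chromosome 3 (29951296 to 30564243). Gm38153 lies inside Gm38258 on the same strand, and Gm6189 lies inside Gm29125 on opposite strands of chromosome 1. The use of strand in counting is not given, so reads of such pairs cannot be told apart.

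The single entry that was higher in Dux-KO was Gm7389, a processed pseudogene on chromosome 8 (3994626 to 3997509). It was at 4.62 and 4.26 CPM in Dux-KO and 1.69 and 1.43 CPM in Dux-Het under 4OHT (log2 fold change 1.51, SE 0.263, adjusted p = 0.044), and at 2.27 to 2.81 CPM in the 4 DMSO libraries. The call held under 9 of 18 alternatives.

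Most of the transcriptome did not differ between the genotypes within the precision of the data. Of 10277 entries with a mean of 10 CPM or more in either genotype under 4OHT, 10 were called: Gm4782, MERVL-int, MT2_Mm and 7 of the Zscan4 entries. Of these 10277, 96.1% (9872) had a 95% interval of the log2 fold change that lay within 1 of zero. The median distance from the estimate to an end of that interval was 0.39. No member of 24 of the 28 lists was called in either direction (466 tested members summed over the lists, some of which are in more than 1). These lists cover regulators of Dux, pluripotency and lineage markers, stress and metabolic pathways, m6A factors, heterochromatin factors, histones and mitochondrially encoded RNA. Over all tested entries 0.273% were called lower and 0.00341% higher. At such shares the absence of a call in a list says little about its members.

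**Figure D5:**
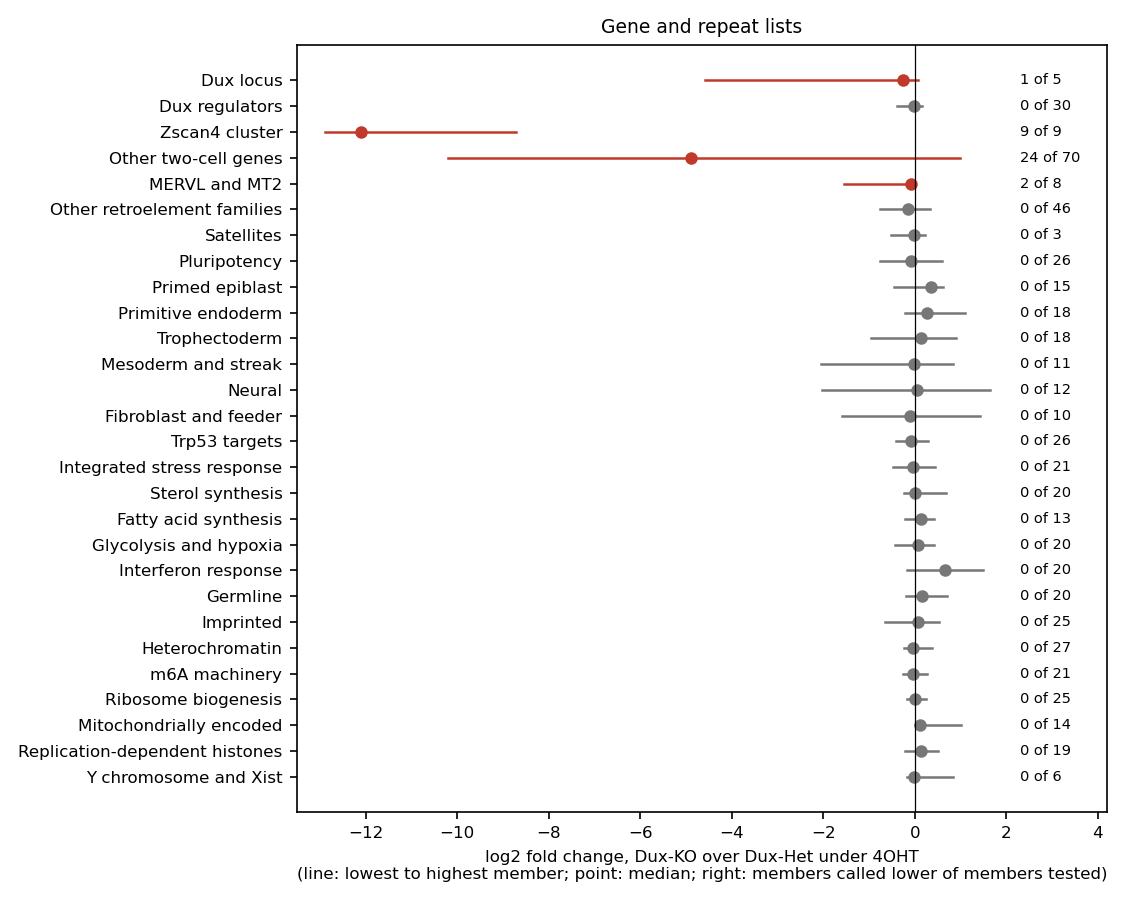
Log2 fold change of Dux-KO over Dux-Het under 4OHT for 28 lists: the line runs from the lowest to the highest tested member and the point is the median; the number of members called lower of those tested stands at the right. Members with too few counts are left out, and members with 0 counts in Dux-KO are drawn at a fitted value that is not a bound. Calls occur only in the Dux locus (1 of 5), the Zscan4 cluster (9 of 9), the other two-cell genes (24 of 70) and MERVL and MT2 (2 of 8).

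Genes known to act upstream of Dux were at similar levels in both genotypes. None of 30 passed (median -0.02, range -0.39 to 0.15), against 0.273% lower over all entries. Dppa2 and Dppa4, a pair of chromatin proteins that activate Dux, had log2 fold changes of -0.11 (95% interval -0.57 to 0.35) and -0.02 (-0.39 to 0.35). Trim28, a corepressor that silences retroelements, was at 733 and 744 CPM in Dux-Het and 770 and 719 CPM in Dux-KO (0.01, -0.36 to 0.38). Ncl, the nucleolar protein that works with Trim28 at the Dux array, was at 844 and 760 CPM and 748 and 857 CPM (0.00, -0.32 to 0.32). In both genes the libraries of the genotypes overlapped.

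The markers of ESC identity were present, with no call between the genotypes. Pou5f1, the central pluripotency factor, was at 247 and 309 CPM in Dux-Het and 278 and 241 CPM in Dux-KO (-0.10, 95% interval -0.59 to 0.39), and Sox2 was at 84.4 to 93.8 CPM over the 4 libraries. None of 26 pluripotency genes passed (median -0.09), against 0.273% lower over all entries. The same was true of 18 primitive endoderm, 18 trophectoderm, 11 mesoderm, 12 neural and 10 fibroblast and feeder genes. The fibroblast and feeder list summed to 1070 and 1189 CPM in Dux-Het and 970 and 1100 CPM in Dux-KO, most of it Fn1, which ESCs also express. Lum, a fibroblast gene of that list, had 0 CPM in both Dux-KO libraries and 0 and 0.0385 CPM in Dux-Het. Its level alone does not show that fibroblast transcripts are absent. Log2 fold changes of the 10 tested members ran from -1.60 to 1.42, and 2 had an unadjusted p under 0.05 by edgeR.

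In some lists the spread came from Dux-Het replicate 2. The interferon response genes summed to 218 and 109 CPM in Dux-Het and 214 and 224 CPM in Dux-KO, and their median log2 fold change was 0.67 with no call among 20. Irf1, an interferon-induced transcription factor, was at 48.6 CPM in Dux-Het replicate 1, 15.2 CPM in replicate 2 and 49.7 and 50.1 CPM in Dux-KO (0.65, 95% interval -0.35 to 1.64). Without Dux-Het replicate 2 the median of the list was 0.04 and Irf1 was at 0.04 (-0.75 to 0.84), again with no call. The primed epiblast genes summed to 865 and 475 CPM in Dux-Het and 814 and 857 CPM in Dux-KO (median 0.36, none of 15 called). Dnmt3b, a de novo DNA methyltransferase, was at 199 and 103 CPM in Dux-Het and 190 and 202 CPM in Dux-KO (0.38, -0.18 to 0.93). Without Dux-Het replicate 2 the median was -0.02 and Dnmt3b was at -0.02 (-0.46 to 0.42), with no call among the 15. In each of these Dux-Het replicate 1 lay close to the Dux-KO libraries.

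Large responses to 4OHT were present in both genotypes without a call between them. The following genes were picked out after their values were seen. Mdm2, the p53 target that degrades p53, was at 369 and 288 CPM in Dux-Het and 426 and 375 CPM in Dux-KO under 4OHT, against 55.6 to 72.2 CPM under DMSO. Its response was 2.36 in Dux-Het and 2.73 in Dux-KO (log2), and its difference between genotypes under 4OHT was 0.29 (95% interval -0.09 to 0.66, adjusted p = 1.00). Of 26 p53 targets 17 rose in Dux-Het and 19 in Dux-KO. Background for these counts is 4.99% of entries higher and 4.34% lower in Dux-Het, and 5.50% higher and 4.36% lower in Dux-KO. Scd2, a fatty acid desaturase, was at 41.5 and 43.8 CPM in Dux-Het and 43.2 and 44.4 CPM in Dux-KO under 4OHT, against 371 to 500 CPM under DMSO (difference between genotypes 0.04, -0.31 to 0.38). All 20 sterol synthesis genes fell in both genotypes. Of 20 glycolysis and hypoxia genes 16 fell in Dux-Het and 15 in Dux-KO. Nanog, a pluripotency factor, changed by -0.65 in Dux-Het (adjusted p = 0.0185) and -0.77 in Dux-KO (adjusted p = 0.0094). In all, 1464 entries rose and 1274 fell under 4OHT in Dux-Het, and 1612 rose and 1278 fell in Dux-KO.

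To ask whether Dux matters without Ythdc1 loss, the genotypes were compared under DMSO. This contrast is between other libraries than that under 4OHT, but both come from 1 fit and share its estimate of the spread. DESeq2 made 17 calls there. By edgeR 757 entries had an unadjusted p under 0.05, a share below the 0.05 expected with no difference. After adjustment 10 entries were lower in Dux-KO (0.0341%) and none higher by edgeR. The 10 were Gm2016, Gm5662 and every Zscan4 entry other than Zscan4-ps1, and all 10 are among the 80. The Zscan4 cluster summed to 11.6 and 17.3 CPM in Dux-Het and had 0 counts in both Dux-KO libraries, a level at least 377-fold lower. The Tcstv group was at 1.88 and 1.54 CPM in Dux-Het and 0 in Dux-KO, at least 44.7-fold lower. The Eif1a-like group was at 4.69 and 6.91 CPM in Dux-Het and 0.271 and 0.0819 CPM in Dux-KO (ratio 37.9, 21.5 to 73.9). Without Dux-KO DMSO replicate 1 there were 4 calls, and without replicate 2 none.

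Of the 80 entries, 78 had a log2 fold change below zero under DMSO as well, beside 52.7% of all tested entries. These shares are not comparable, because the 80 were chosen as low in Dux-KO and some signs rest on very few counts. Gm16429, for example, had 0 and 1 counts in Dux-Het under DMSO and 0 in both Dux-KO libraries. Whether the genotype difference itself changed with 4OHT was tested by the interaction. No entry passed by edgeR, and DESeq2 made 2 calls. By edgeR 481 entries had an unadjusted p under 0.05, also below a share of 0.05 of those tested. MERVL-int had the interaction -1.22 (95% interval -1.71 to -0.73, unadjusted p = 0.000183, adjusted p = 1.00) and MT2_Mm -0.58 (-1.04 to -0.12, unadjusted p = 0.0174). Duxf3 had -3.94 (-6.47 to -1.41, unadjusted p = 0.00559, adjusted p = 1.00). For entries such as Zscan4c, with 0 counts in Dux-KO under both treatments, the counts cannot estimate the interaction.

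The 80 entries were then looked up in the other libraries of the series. In the 8 other Ythdc1-cKO libraries, whose labels name no change at Dux, 77 of the 80 could be tested for 4OHT against DMSO. In Mettl3 knockout against wild-type ESCs 69 could be tested. Entries that are near 0 in the controls entered these tests through the treated or knockout libraries, so no count or median over the entries is given. Under 4OHT Zscan4c rose by 2.88 (log2; edgeR adjusted p = 8.64e-07), Duxf3 by 2.31 (adjusted p = 0.000193) and MERVL-int by 1.65 (adjusted p = 7.01e-08). In Mettl3 knockout cells Zscan4c was higher by 6.70 (adjusted p = 1.36e-06), Duxf3 by 2.63 (adjusted p = 0.021), MERVL-int by 1.03 (adjusted p = 2.65e-05) and MT2_Mm by 0.63 (adjusted p = 0.00119).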

How the data were processed

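Total RNA depleted of ribosomal RNA was sequenced in pairs of reads, per the labels' protocols. STAR 2.7, RSEM, Bowtie2, bcl2fastq and mm10 are listed in the submitters' processing notes. Counting tool, annotation, strand setting and treatment of multi-mapping reads are not given there, so values of paralogs are uncertain. The authors deposited whole-number counts for 44749 entries in 22 libraries, of which 43672 match GENCODE vM21 symbols and 1077 were taken as repeat families. A second deposited table holds normalized signal, equal to the counts over a per-library factor. It breaks off in mid-line and gave only an alternative set of factors. For the 10 Dux libraries the genotype and treatment fields are shifted by 1 sample against the titles, and the titles were used, which match the column names. Nothing says that replicates are separate cultures, so p-values measure the spread between these samples, which may be technical.

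The 10 Dux libraries were fitted as 6 group means (4 residual degrees of freedom) with edgeR 4.0.16 in R 4.3.3: filterByExpr, TMM, glmQLFit, glmQLFTest, Benjamini-Hochberg adjustment over 29322 entries, threshold 0.05. All adjusted p-values are from this test, and each SE follows from the log2 fold change and its F statistic. An entry with 0 counts in Dux-KO has a fold against a floor of 3 counts over the group. With few counts a ratio has its exact 95% interval. Both cover counting error only and take counts as independent. If both reads of a pair were counted, which is not stated, the intervals are too narrow and the bounds too high. The other Ythdc1 and Mettl3 libraries were fitted apart. DESeq2 1.42.0, limma 3.58.1 and matplotlib 3.10.9 were also used. Replicates differed by more than sampling noise (chi-square per degree of freedom 18.99 to 99.07).

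Members and lists were chosen with earlier results of these data known. Named entries are Duxf3, Ythdc1 and Mettl3, all members of the Dux locus, Zscan4, MERVL and MT2 lists, the other two-cell genes of largest change among those that passed without overlap of libraries, up to 2 genes of highest level from lists with no call, and the entries of largest change at 1 CPM or more outside lists, with numbered entries summarised. Alternatives covered the libraries fitted, scaling, filter, test, replicate block and each replicate left out.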

Additional observations from a re-analysis of the deposited data

How the results depend on the processing

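The count of lower entries under 4OHT (80) stayed between 64 and 106 under 9 alternatives with all replicates kept: 81 and 74 with 8 and 4 libraries fitted, 80 with DESeq2's size factors and with the authors' factors, 64 at 1 CPM or more, 78 over genes alone and 106 with DESeq2. Without a filter it was 247, with 25 higher. The 1 higher entry was lost (0) with 4 libraries or at 1 CPM or more. Leaving out 1 replicate gave 30 to 96 lower and 0 to 9 higher entries; 9 came without Dux-Het 4OHT replicate 1. Under DMSO the counts were 87 lower and 37 higher without a filter, 17 lower with DESeq2, and 0 to 12 lower and 0 to 3 higher with 1 replicate left out. The interaction had 21 lower and 7 higher entries without a filter, 2 lower with DESeq2, and 0 lower and 0 to 1 higher with 1 replicate left out. The 4OHT response in Dux-Het gave 2423 higher entries without a filter, and 430 to 1028 lower and 824 to 1065 higher with 1 replicate left out. In Dux-KO it gave 2127 lower and 2574 higher without a filter, 1924 lower with DESeq2, and 126 to 1351 lower and 282 to 1076 higher with 1 replicate left out. Leaving out 1 replicate leaves a lone sample, assumed to vary like the other groups. The cause of these shifts was not tested. Of the values for single entries 824 kept direction and side of the threshold, 85 lost the call and 1 changed sign: Ythdc1, not called in either case, which ran from -0.25 to 0.08 with 1 replicate left out and was 0.08 without Dux-Het 4OHT replicate 2.

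Replicate numbers did not pair Dux-KO with Dux-Het under 4OHT: over 12652 entries the deviations of same-numbered libraries correlated at -0.203. The other pairs of groups gave 0.565 (Dux-Het under 4OHT and DMSO), 0.383 (both genotypes under DMSO), 0.243 (Dux-KO under 4OHT and DMSO), 0.038 (Dux-Het under 4OHT and Dux-KO under DMSO) and -0.117 (Dux-KO under 4OHT and Dux-Het under DMSO). The replicate block gave 93 lower entries, which include all 80, 12 lower entries under DMSO, none for the interaction, 1744 lower and 2009 higher under 4OHT in Dux-Het, and 1879 lower and 2361 higher in Dux-KO. The crossed block, added after seeing the data, gave 78. Counts as low as those of Duxf3 in Dux-KO (1 and 5) limit what can be called.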
